A study of Mus musculus with 10 samples.

Results

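The giant proteins of the sarcomere and the genes of the M-band were examined in bulk RNA-seq libraries of mouse pinna prominences, the swellings that form the outer ear, taken at E14.5. The genes were 9 rows of the count table, chosen by gene symbol out of 53465: *Ttn*, *Neb*, *Nebl*, *Myom1*, *Myom2*, *Myom3*, *Mybpc1*, *Mybpc2* and *Mybph*. The 5 WT embryos and the 5 homozygous mEC1dup/dup embryos had the C57BL/6J background. The mutants, made by CRISPR/Cas9 knock-in, carried an added copy of mEC1 on both alleles. mEC1 is the mouse counterpart of a conserved element near the transcription factor gene *Hmx1*. Neither group's labels name a Cre or a drug treatment, and the pinna tissue was not sorted, so that muscle, skin, cartilage and blood cells shared each library.

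The libraries held 17461544 to 18462073 gene counts, and 16426 genes had enough counts to be tested. *Hmx1* was at 21.7 to 29.1 CPM (gene counts scaled to the effective library size) in WT and at 52.9 to 77.5 CPM in mEC1dup/dup embryos. Embryonic globin transcripts, as a share of all globin counts, were 18.4% to 23.3% in WT and 32.6% to 35.6% in mEC1dup/dup. *Xist*, transcribed from the inactive X chromosome of females, had 2 to 5 counts in the WT libraries and 12812, 19040, 18165, 2096 and 0 counts in mEC1dup/dup replicates 1 to 5. *Hmx1* and the embryonic globin share separated the genotypes fully, and *Xist* did so except in mEC1dup/dup replicate 5.

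The sarcomere is the contractile unit of striated muscle, in which thin actin filaments anchored at the Z-disc slide along thick myosin filaments held together at the M-band. Titin, the product of *Ttn*, runs from the Z-disc to the M-band and acts as a molecular spring and scaffold. Nebulin, from *Neb*, lies along the thin filament and stabilises it, while *Nebl* encodes nebulette, a smaller relative known from heart muscle, and a LIM-domain form found outside muscle. The myomesins (*Myom1*, *Myom2*, *Myom3*) crosslink thick filaments and titin at the M-band. The myosin-binding proteins sit on the thick filament away from the M-band: *Mybpc1* encodes the slow skeletal form of myosin-binding protein C, *Mybpc2* the fast skeletal form, and *Mybph* the shorter relative myosin-binding protein H.

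The start regions of 3 genes are shown, because *Ttn* and *Mybpc1* had calls that held with each embryo left out and *Mybph* had the fold change nearest 0. Windows from 250 bases before to 50 bases after the annotated start (RefSeq, table build GRCm38.p6) were found for 7 of the 9 genes, 10 windows in all, of which 4 belonged to *Nebl*; *Neb* and *Myom2* matched no entry. Each window matched GRCm39 exactly once, at chr2:76812842-76813141 (minus strand) for *Ttn*, chr10:88440965-88441264 (minus strand) for *Mybpc1* and chr1:134120936-134121235 (plus strand) for *Mybph*. Capitals mark the E-box letters of the type bound by myogenic factors, and the sequences run 5′ to 3′ along the gene's strand.
Ttn: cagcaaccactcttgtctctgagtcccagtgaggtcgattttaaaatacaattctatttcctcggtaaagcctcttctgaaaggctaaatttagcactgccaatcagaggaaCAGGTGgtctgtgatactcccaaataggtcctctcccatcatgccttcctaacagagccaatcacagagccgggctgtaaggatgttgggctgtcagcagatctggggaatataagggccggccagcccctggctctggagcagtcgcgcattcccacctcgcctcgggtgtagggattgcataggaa
Mybpc1: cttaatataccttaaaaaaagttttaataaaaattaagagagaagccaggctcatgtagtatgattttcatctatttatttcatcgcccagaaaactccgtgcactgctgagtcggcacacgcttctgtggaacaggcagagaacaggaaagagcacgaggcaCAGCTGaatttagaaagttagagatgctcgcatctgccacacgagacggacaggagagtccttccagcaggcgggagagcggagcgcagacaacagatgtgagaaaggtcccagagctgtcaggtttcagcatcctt
Mybph: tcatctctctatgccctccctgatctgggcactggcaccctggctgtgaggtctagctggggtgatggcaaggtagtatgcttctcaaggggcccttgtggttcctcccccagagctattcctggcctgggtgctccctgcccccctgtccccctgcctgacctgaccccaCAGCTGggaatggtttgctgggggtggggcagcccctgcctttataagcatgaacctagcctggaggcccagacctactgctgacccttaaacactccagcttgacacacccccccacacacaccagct

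The letters CAGCTG, which read the same on both strands, were in 2 of the 10 windows, those of *Mybpc1* (starting 87 bases before the annotated start) and *Mybph* (79 bases before). CAGCTG was in 16.3% of 32851 RefSeq promoter windows. CACCTG or its reverse complement CAGGTG was in 4 windows, among them that of *Ttn*, where CAGGTG started 138 bases before the start, against 20.2% of all windows. CAAGTG or CACTTG was in 0 of the 10 windows and in 13.6% of all. *Ttn* and *Mybpc1*, which differed between genotypes, and *Mybph*, which did not pass the test, each held a single match of these letters, and the match is a description of the letters only.

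In mEC1dup/dup pinnae, titin, nebulin, 2 myomesins and slow myosin-binding protein C had lower RNA levels than in WT, by 22.2% (*Myom1*) to 39.2% (*Ttn*). Of the 9 genes, 8 had enough counts to be tested, 5 were lower at an adjusted p of at most 0.05 with an average log2 CPM of at least 1, and 0 were higher. Over all tested genes, 1.81% were lower and 0.834% higher by the same criteria (edgeR quasi-likelihood fit, Benjamini-Hochberg adjusted over 16426 genes). All 8 log2 fold changes were negative, as were 51.2% of those of all tested genes, and their median was -0.51 against -0.0041 over all tested genes. In 4 of the 8 genes every mEC1dup/dup embryo lay below every WT embryo, which was the case for 2.75% of all tested genes, and in 0 every mutant lay above (2.33%). In bulk tissue, fewer muscle cells and less RNA per muscle cell cannot be told apart. Nor can genotype be told apart from the embryonic globin share or, outside mEC1dup/dup replicate 5, from sex as read from *Xist*.

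**Figure D1:**
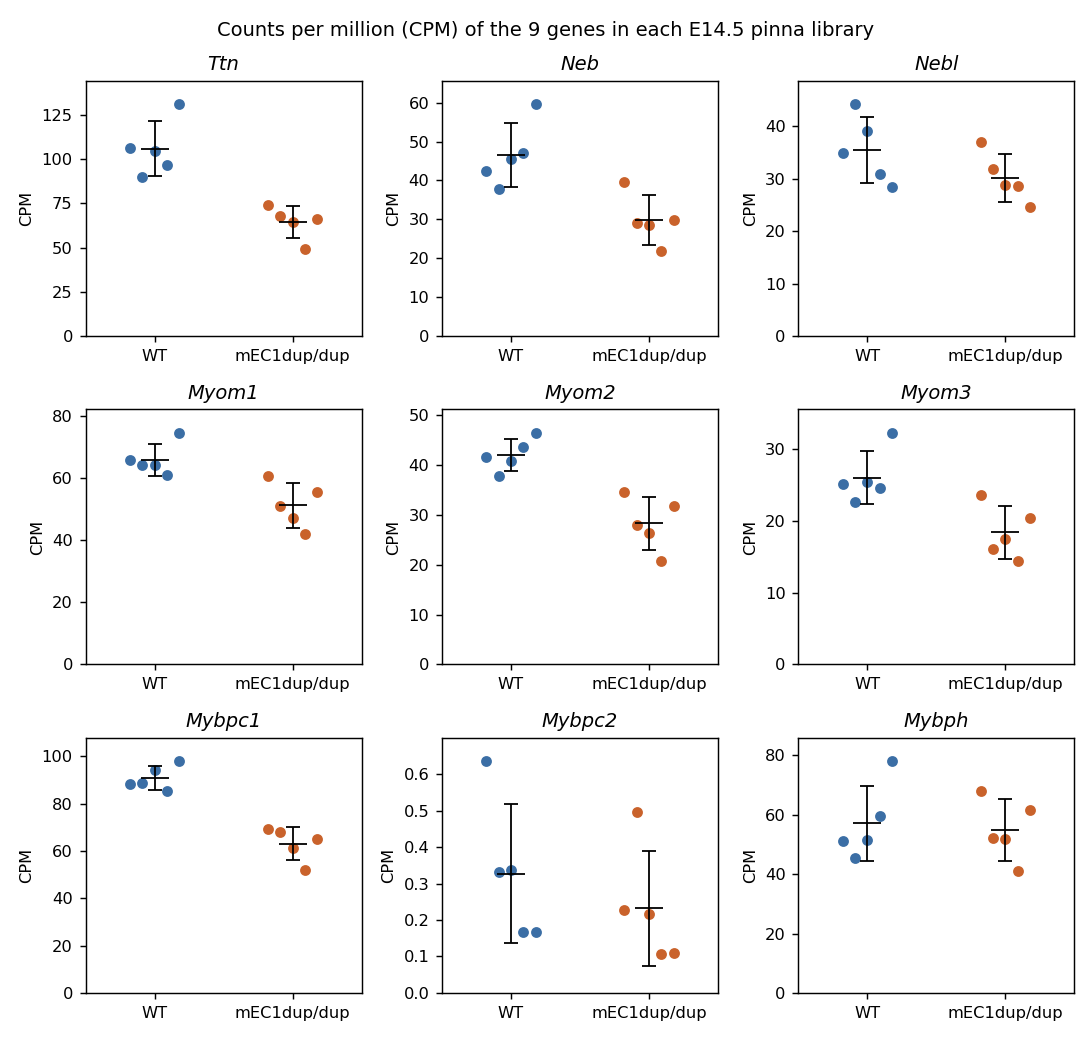
CPM of each of the 9 genes in each of the 10 embryos, WT beside mEC1dup/dup, with the group mean and SD. Every mEC1dup/dup point of *Ttn*, *Myom1*, *Myom2* and *Mybpc1* lies below the lowest WT point, the groups overlap for *Neb*, *Nebl*, *Myom3* and *Mybph*, and *Mybpc2* stays near 0.

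*Ttn* (ENSMUSG00000051747, GRCm39 chr2:76534136-76812891, minus strand) had 106, 90.1, 105, 96.8 and 131 CPM in WT replicates 1 to 5. In mEC1dup/dup replicates 1 to 5 it had 73.9, 68.1, 64.5, 49.4 and 65.9 CPM. The highest mutant, replicate 1, was below the lowest WT embryo, replicate 2, so the groups were separate. The means were 106 ± 15.5 and 64.4 ± 9.09 CPM (± SD over 5 embryos each). On the log2 scale the difference was -0.72 (SE 0.11, edgeR adjusted p = 0.00632). Leaving out each of the 10 embryos in turn gave -0.77 to -0.63 with an adjusted p of 0.00327 to 0.0275, so the call was kept in 10 of 10. At an adjusted p of at most 0.01, 2 of the genes were called, *Ttn* and *Mybpc1*.

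*Neb* (ENSMUSG00000026950, chr2:52026659-52268486, minus strand) had 42.5, 37.7, 45.5, 47.1 and 59.6 CPM in WT and 39.6, 29.2, 28.5, 21.9 and 29.8 CPM in mEC1dup/dup. Mutant replicate 1 exceeded WT replicate 2, and the other 4 mutants lay below every WT embryo. Its log2 fold change came to -0.64 (SE 0.14, edgeR adjusted p = 0.0321). The call was lost without WT replicate 1, 3 or 5 (adjusted p 0.0551, 0.0571 and 0.0600) and without mutant replicate 2, 3, 4 or 5 (0.0869, 0.0904, 0.0598 and 0.0604).

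*Nebl* (ENSMUSG00000053702, chr2:17347467-17736275, minus strand) had 35.0, 44.2, 39.1, 31.0 and 28.5 CPM in WT and 37.0, 31.8, 28.8, 28.6 and 24.5 CPM in mEC1dup/dup. The groups overlapped over most of their range. Its log2 fold change came to -0.24 (SE 0.12, edgeR adjusted p = 0.380). Its WT order was also unlike that of the other genes, since WT replicate 5, the highest WT embryo for the remaining 7 tested genes, was the lowest for *Nebl*.

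Of the 3 M-band crosslinkers, *Myom2* had the largest fold change. *Myom2* (ENSMUSG00000031461, chr8:15107272-15183541, plus strand) had 41.6, 37.7, 40.9, 43.6 and 46.5 CPM in WT and 34.6, 28.0, 26.5, 20.8 and 31.8 CPM in mEC1dup/dup, with no overlap. The means were 42.0 ± 3.26 and 28.3 ± 5.31 CPM (± SD over 5 embryos each). On the log2 scale the difference was -0.57 (SE 0.11, edgeR adjusted p = 0.0181). The call was lost without mutant replicate 2 (adjusted p = 0.0546) or 3 (0.0610).

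*Myom1* (ENSMUSG00000024049, chr17:71309628-71434802, plus strand) had 65.8, 64.2, 64.3, 61.0 and 74.7 CPM in WT and 60.8, 51.1, 47.1, 42.1 and 55.6 CPM in mEC1dup/dup. The groups did not overlap, but mutant replicate 1 lay just under WT replicate 4. Its log2 fold change came to -0.36 (SE 0.088, edgeR adjusted p = 0.0459), the smallest of those called. The call was lost without WT replicate 1, 2, 3 or 5 (adjusted p 0.10, 0.0905, 0.0763 and 0.0963) and without mutant replicate 2, 3, 4 or 5 (0.112, 0.129, 0.0806 and 0.0541). *Myl12a* and *Gm53974*, annotated on the opposite strand, overlap 2.46% of the *Myom1* exon bases. *Myl12a* had 6888 to 8064 counts a library in WT and 7205 to 8001 in mEC1dup/dup (log2 fold change -0.03, edgeR adjusted p = 0.815). Strand use in counting is not given in the sources used here, and the part of *Myl12a* in the *Myom1* values was not tested.

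*Myom3* (ENSMUSG00000037139, chr4:135487017-135542875, plus strand) had 25.1, 22.6, 25.4, 24.5 and 32.2 CPM in WT and 23.6, 16.1, 17.4, 14.4 and 20.4 CPM in mEC1dup/dup. Mutant replicate 1 exceeded WT replicate 2 and the other mutants lay below all WT embryos. The log2 fold change of -0.50 (SE 0.13) did not pass the test (edgeR adjusted p = 0.0603). It passed without mutant replicate 1 (log2 fold change -0.61, adjusted p = 0.0196), without WT replicate 4 (-0.52, 0.050) and in tests named in the closing section. A difference between *Myom3* and the other 2 myomesins was not tested.

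*Mybpc1* (ENSMUSG00000020061, chr10:88354062-88441175, minus strand) had 88.2, 88.6, 94.2, 85.4 and 98.0 CPM in WT and 69.2, 68.2, 61.4, 52.1 and 65.0 CPM in mEC1dup/dup. It was the most even of the tested genes among WT embryos, with a coefficient of variation of 5.61%, and its groups did not overlap. The means were 90.9 ± 5.10 and 63.2 ± 6.93 CPM (± SD over 5 embryos each). On the log2 scale the difference was -0.53 (SE 0.070, edgeR adjusted p = 0.00327). Leaving out each embryo gave -0.56 to -0.46 with an adjusted p of 0.00178 to 0.0172, and the call was kept in 10 of 10.

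*Mybpc2* (ENSMUSG00000038670, chr7:44150793-44174153, minus strand), the fast skeletal form, had 11, 6, 6, 3 and 3 counts in WT and 4, 9, 4, 2 and 2 counts in mEC1dup/dup. These counts were too low for the test. Summed over the embryos they were 29 counts (exact Poisson 95% interval 19.4 to 41.7) and 21 counts (13.0 to 32.1), intervals that cover counting error only and overlap. At this depth no difference was detectable.

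*Mybph* (ENSMUSG00000042451, chr1:134121171-134132301, plus strand) had 51.2, 45.3, 51.5, 59.4 and 78.1 CPM in WT and 68.1, 52.1, 51.7, 41.1 and 61.7 CPM in mEC1dup/dup. The groups overlapped over most of their range, with means of 57.1 ± 12.8 and 54.9 ± 10.4 CPM (± SD over 5 embryos each). Its log2 fold change came to -0.06 (SE 0.15, edgeR adjusted p = 0.892), and its sign changed without WT replicate 5 (0.08) or mutant replicate 4 (0.03). Genes annotated on the opposite strand, *Adora1* and *Gm46158*, overlap 63.3% of its exon bases. The use of strand in counting is not given in the sources used here, so reads of these genes may not be told apart from those of *Mybph*. *Adora1* had 40 to 79 counts a library, and *Gm46158* had no row in the counts. Their part in the *Mybph* values was not tested.

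**Figure D2:**
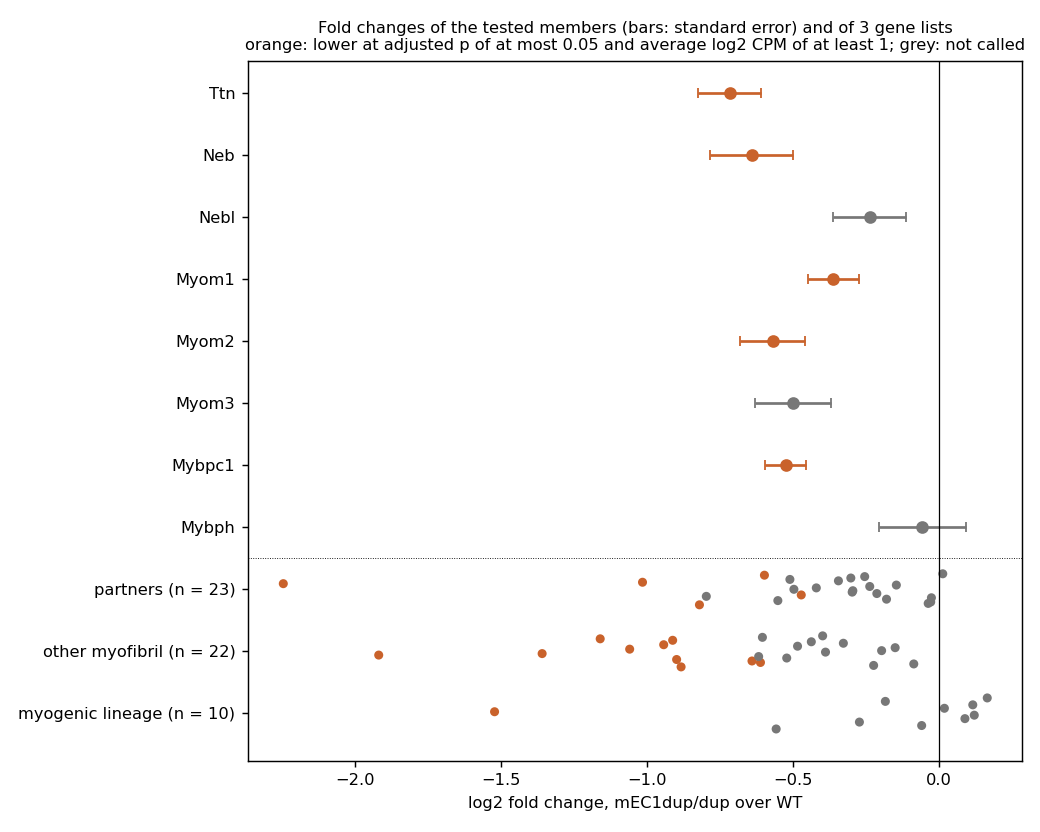
Log2 fold change (mEC1dup/dup over WT) of the 8 tested genes with its standard error. Below them are points for the tested partners of titin, nebulin and the M-band (23), other myofibril genes (22) and myogenic lineage genes (10). The values of the 8 genes run from -0.72 for *Ttn* to -0.06 for *Mybph*, and 5 of them are called lower. In the lists 5 partners, 10 other myofibril genes and 1 myogenic lineage gene are called lower.

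Expressed per kilobase of exon in WT embryos, *Mybpc1* and *Mybph* were the most abundant of the tested genes and *Ttn* the least abundant. *Mybpc1* was at 11.8 and *Mybph* at 10.4 CPM per kb over all annotated exon bases, with overlapping ranges (11.1 to 12.7 and 8.22 to 14.2). *Myom3* (4.30) and *Myom1* (4.11) also overlapped, as did *Myom2* (2.44) with *Nebl* (1.82), and *Nebl* with *Neb* (1.73). *Ttn* followed at 0.900 CPM per kb, its highest WT embryo (1.12) below the lowest for *Neb* (1.40), and *Mybpc2* was at 0.0565. The order depended on the length used: with the canonical transcript, *Mybph* (24.4) and *Mybpc1* (22.3) changed places, and *Myom1* (11.6) and *Myom2* (7.71) were above *Myom3* (4.65). *Nebl* was then at 3.95 (3.17 to 4.92), with a range separate from those of *Neb* (1.61 to 2.55) and *Myom2* (6.91 to 8.52). *Ttn* has 118 kb of exon, the largest length among these genes, and genes with over 10 kb of exon had a median log2 fold change of -0.0076, against -0.0068 for those under 2 kb.

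The embryos ranked alike for most of these genes. WT replicate 5 was the highest WT embryo in 7 of the 8 tested genes, mEC1dup/dup replicate 4 the lowest mutant in 7, and mEC1dup/dup replicate 1 the highest mutant in 8. Deviations of log2 CPM from the group means, over the 10 embryos, correlated with Pearson's r of 0.71 (*Mybpc1* with *Mybph*) to 0.95 (*Neb* with *Mybph*) in the 21 pairs without *Nebl*. In the 7 pairs with *Nebl*, r was -0.38 to 0.15. All these values come from the same libraries, so they are descriptions. The part of muscle content in them was not tested. *Ryr1*, the calcium release channel of the sarcoplasmic reticulum, was the gene most like *Ttn* by this measure (r = 0.97), at a log2 fold change of -0.33 (edgeR adjusted p = 0.21). *Pank2* (r = 0.97), *Alpk3* (0.96), *Enah* (0.96) and *Fam169b* (0.96) came next, with log2 fold changes of 0.05, -0.22, 0.06 and 0.02, none of which passed the test.

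**Figure D3:**
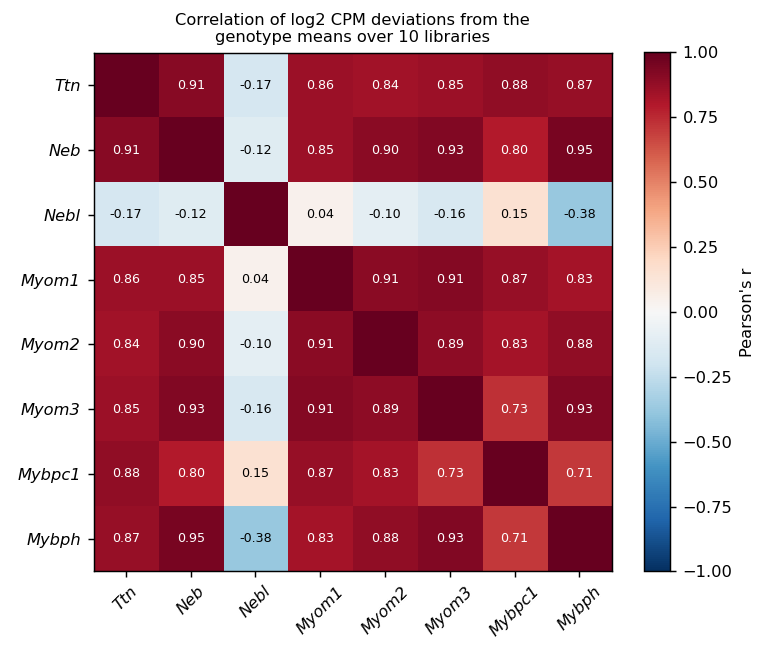
Pearson's r between the 8 tested genes of their log2 CPM deviations from group means over 10 embryos. Pairs without *Nebl* range from 0.71 to 0.95, and those with *Nebl* from -0.38 to 0.15.

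Genes of the same structures fell in part. Of 27 listed partners of titin, nebulin and the M-band, 23 were tested, 5 were lower and 0 higher, with a median log2 fold change of -0.30, against 1.81% lower and 0.834% higher over all tested genes. Among those lower were *Ckm*, the muscle creatine kinase that binds the M-band (-2.25), *Lmod2*, a thin filament nucleator (-1.02), *Nrap* of the nebulin family (-0.60) and the LIM-domain gene *Fhl1* (-0.47). Of 25 other myofibril genes, 22 were tested, 10 were lower and 0 higher, with a median of -0.61, against the same shares over all genes. *Myl2* (-1.92), *Myl3* (-1.36), *Tnnt3* (-1.06) and *Acta1* (-0.88), which encode myosin light chains, a fast troponin T and skeletal actin, were among them, as were *Myoz1* (-1.16), *Tnni2* (-0.94), *Ldb3* (-0.91) and *Myh8* (-0.90).

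Most myogenic lineage genes did not pass the test. Of 10 myogenic lineage genes tested, 1 was lower, *Myf6* (-1.52, edgeR adjusted p = 0.00804), and the median was -0.02. The factors *Myod1* (0.09, adjusted p = 0.786), *Myog* (0.12, 0.745), *Myf5* (-0.27, 0.641) and *Pax7* (-0.06, 0.901) did not pass. Heart muscle markers summed to 21.4 to 32.7 CPM in WT and 16.7 to 24.0 CPM in mEC1dup/dup, and edgeR called 0 of 4 tested genes (2 at an unadjusted p under 0.05, as were 16.2% of all tested genes, and DESeq2 called 1 lower). *Myl7* had at most 2 counts and *Nppa* at most 1 in any library, while *Myh6* had 36 to 89 and *Tnni3* 29 to 54. The other listed heart markers had 191 to 430 (*Sln*), 12 to 42 (*Ryr2*) and 1 to 11 counts (*Mybpc3*). Smooth muscle markers summed to 286 to 379 and 292 to 376 CPM, and edgeR called 0 of 6 (3 at an unadjusted p under 0.05, and DESeq2 called 0). Epidermis markers were lower in 4 of 6 (780 to 1463 and 560 to 786 CPM), as was 1 of 6 cartilage markers (4566 to 7615 and 2053 to 6045 CPM). Over all tested genes 1.81% were lower and 0.834% higher. The part of these markers in the results was not tested.

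Set against the summed CPM of 25 other myofibril genes, which was 3209 to 4939 in WT and 2041 to 3262 in mEC1dup/dup embryos, 7 of the 8 tested genes had overlapping groups. The log2 ratio of *Ttn* to this sum differed by -0.21 (exact permutation test, two-sided p = 0.0476, where 0.00794 is the smallest p the design allows), and by 0.09 with a sum of only *Acta1*, *Mylpf* and *Tnnt3* (p = 0.413, exact permutation test). The *Ttn* ratio was lower by 0.16 to 0.25 with each embryo left out, and its p was above 0.05 in 7 of 10. Differences for *Neb* (-0.14), *Nebl* (0.28), *Myom1* (0.14), *Myom2* (-0.08), *Myom3* (-0.0021) and *Mybpc1* (-0.02) came with overlapping groups. With the 3-gene sum these came to 0.16 (*Neb*), 0.58 (*Nebl*), 0.44 (*Myom1*), 0.22 (*Myom2*), 0.30 (*Myom3*) and 0.28 (*Mybpc1*), so the sign for *Neb*, *Myom2*, *Myom3* and *Mybpc1* depended on the sum. *Acta1* and *Tnnt3* were themselves called lower, and every ratio is higher by the same amount with this sum. For *Mybph* the ratio was higher by 0.46 in mEC1dup/dup, all mutants above all WT embryos, as in 21.4% of all tested genes, and 0 of the 8 had all mutants below (0.189%). It was higher by 0.76 with the 3-gene sum.

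**Figure D4:**
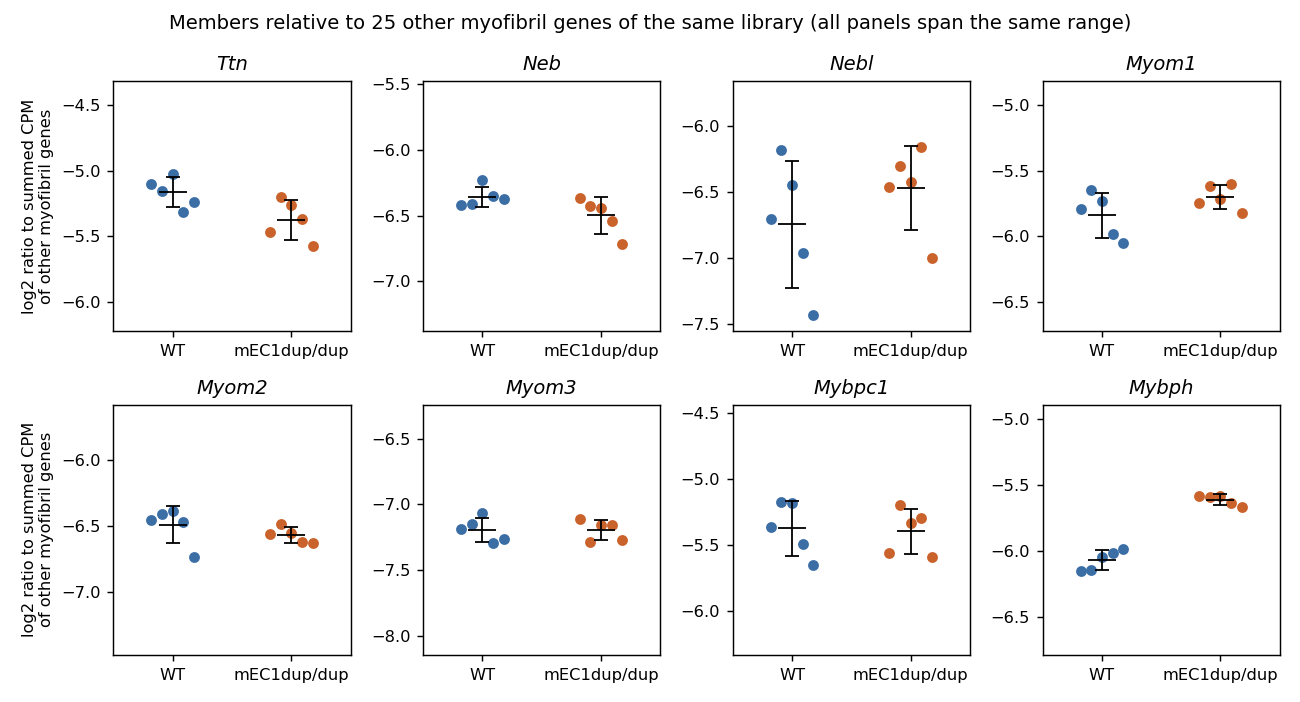
Log2 ratio of each tested gene to the summed CPM of 25 other myofibril genes, per embryo and genotype, all panels with the same vertical span. The *Mybph* points of mEC1dup/dup lie above every WT point, and the groups overlap for the other 7 genes.

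With the log2 of this sum as a covariate in the edgeR fit over all genes, 0 of the 8 genes were called lower and *Mybph* was called higher, by 0.51 (SE 0.067, adjusted p = 0.0132). In that fit 0.103% of all tested genes were higher and 0.219% lower, and 5 of the 8 genes had an unadjusted p under 0.05, as did 10.7% of all tested genes. The sum was itself lower in mEC1dup/dup, so a gene that followed it within the groups without a genotype difference comes out higher in this fit by construction, and the *Mybph* value is no evidence of a rise in its RNA. *Myod1* (0.54), *Myog* (0.65) and *Actc1* (0.26, itself a part of the sum) were also among the 17 genes called higher, while *Acta1* (-0.36, also a part of the sum) and the M-band partner *Ckm* (-1.52) were called lower. With each embryo left out, the *Mybph* value was 0.48 to 0.56 with an adjusted p of 0.00633 to 0.105, and it failed the test only without WT replicate 2 (0.105). With a 3-gene sum as covariate it was 0.79 (adjusted p = 0.0166). Of the genes called lower without the covariate, *Ttn* was at -0.36 (adjusted p = 0.151) and *Mybpc1* at -0.35 (0.116). The values of the other 3 were nearer 0, with *Neb* at -0.15 (0.656), *Myom1* at -0.09 (0.757) and *Myom2* at -0.20 (0.430). *Myom3* was at -0.06 (0.878) and *Nebl* at -0.39 (0.458).

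**Figure D5:**
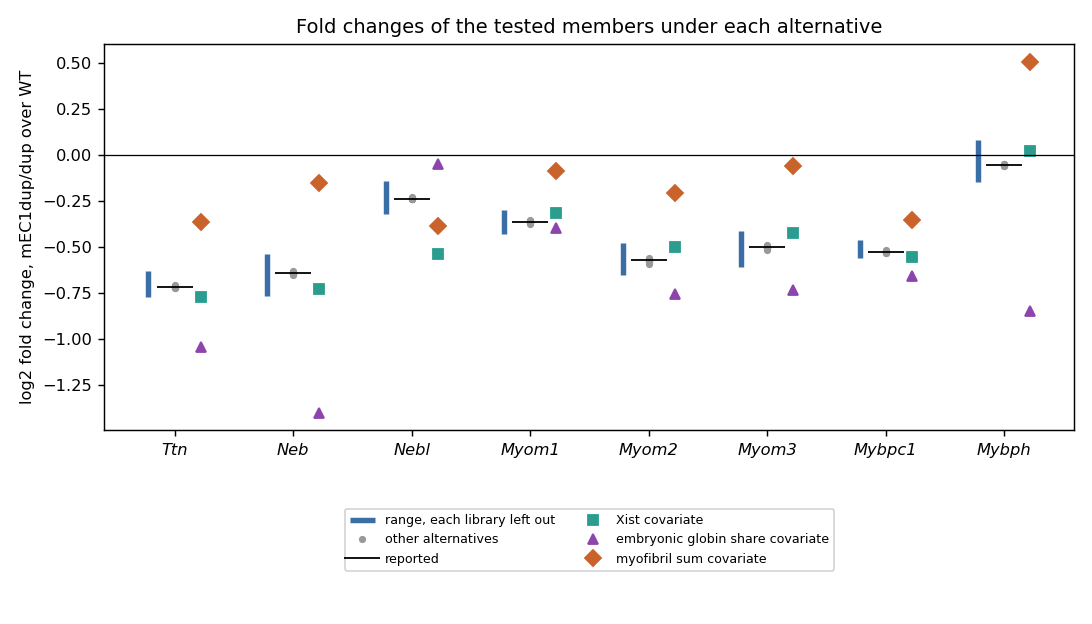
Log2 fold change of each of the 8 tested genes under each processing alternative. The directions hold except for *Mybph*, which turns positive with the *Xist* or myofibril covariate and without WT replicate 5 or mutant replicate 4, and the values with the globin covariate are the lowest for 6 genes, *Ttn* (-1.04), *Neb* (-1.40), *Myom2* (-0.76), *Myom3* (-0.73), *Mybpc1* (-0.66) and *Mybph* (-0.85).

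The embryonic globin share separated the genotypes fully, so that share and genotype cannot be told apart, and *Xist* separated them in all but 1 mutant. With the *Xist* level added to the fit, 0 of the 8 were called (5 at an unadjusted p under 0.05, as were 8.81% of all tested genes, edgeR), with *Ttn* at -0.77 (SE 0.19, adjusted p = 0.325), *Mybpc1* at -0.55 (SE 0.12, 0.282) and *Nebl*, which was at -0.24 without it, at -0.54 (SE 0.19, 0.467). With the embryonic globin share, 0 were called (2 at an unadjusted p under 0.05, as were 4.83% of all), with *Ttn* at -1.04 (SE 0.47, adjusted p = 0.898) and *Mybph* at -0.85 (SE 0.62, 0.898).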

How the data were processed

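Bulk RNA-seq of pinna prominences was deposited as raw read counts per gene, 1 column for each of 10 embryos. According to the labels and methods, the authors trimmed reads with fastp, mapped them to GRCm39 with STAR and counted them with featureCounts; library kits are named differently in the labels and the methods. Counts were matched to GENCODE symbols (49355 of 53465 IDs, the rest holding 0.111% of counts). Low genes were removed with edgeR's filterByExpr, libraries were scaled by TMM, and 16426 genes were fitted with edgeR 4.0.16's quasi-likelihood test (R 4.3.3), Benjamini-Hochberg adjusted over all of them. Calls needed an adjusted p no higher than 0.05 plus a mean log2 CPM of 1 or more, the study's thresholds. Named genes were the members, called or defining genes of the partner, myofibril, lineage and marker lists, the 5 genes most like *Ttn*, *Hmx1* and *Xist*, plus genes overlapping *Mybph*. The members and lists were chosen with earlier results of these data known. DESeq2 1.42.0 and limma-voom 3.58.1 were alternatives. On simulated counts, 74.5% of 200 genes changed by -0.6 were recovered, and 5 of 154 calls were false. The other genes were left unchanged and each gene was drawn independently, so this rate need not hold for genes that vary together. Embryos are separate animals. The study describes its replicates as siblings from separate litters, and which embryos shared a litter is not given in the sources used here. No covariate entered the main test.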

Additional observations from a re-analysis of the deposited data

How the results depend on the processing

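The 5 genes called lower kept their direction under the other scalings, filters, tests and covariates tried. The same 5 were called by limma-voom, with DESeq2 size factors, upper quartile factors or total counts alone, with a minimum of 10 counts in every library and with no threshold on log2 CPM. DESeq2's Wald test gave 510 lower and 321 higher genes over the whole table, and the likelihood ratio test 448 and 219, with 6 of the 8 genes called, *Myom3* added (adjusted p 0.0063 and 0.0129); *Myom3* also passed with no filter (0.0317). A threshold of 0.01 on the adjusted p left 62 lower and 16 higher genes, and 2 of the 8. A replicate block in the fit gave 488 lower genes, and *Myom3* was called (-0.51, adjusted p = 0.0139); deviations of same-numbered embryos correlated by -0.0559 to 0.345 over 5 pairs (mean 0.162), 4 of 10 embryos correlated best with their own number, and whether numbers mark shared litters is not given in the sources used here. With the *Xist* covariate 1 lower and 1 higher gene and 0 of the 8 were called, with the globin share 0, 0 and 0, and with the myofibril sum 36 lower and 17 higher genes, with 0 of the 8 lower and *Mybph* higher. Unadjusted p was under 0.05 for 793 genes with the globin share. Without single embryos, lower genes were 120 to 476, higher genes 34 to 179 and called genes of the 8 were 2 to 6. *Mybph* reversed with *Xist* (0.022) and the myofibril sum (0.51), was at -0.85 with the globin share, and ranged from -0.15 to 0.083 without single embryos. The *Ttn* ratio reversed with a 3-gene sum (0.093). The canonical length, and the embryo-by-embryo and 3-gene versions of the *Mybph* covariate fit, were chosen after seeing the data. The causes of these changes were not tested.

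The depth of 17461544 to 18462073 counts limits low genes such as *Mybpc2*.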
